A study of Mus musculus with 6 samples.

Results

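8 genes of death receptor signalling are described here: Cflar, Casp8, Fadd, Tradd, Ripk1, Birc2, Birc3 and Xiap. They were found as all non-control probes to which the scanner files give 1 of these 8 gene names, which gave 8 genes of 27975 and 19 probes of 41174. All 19 probes were among the 33056 tested. The probes are 60-base oligonucleotides of a two-colour Agilent mouse array, and the files give their positions on mm9.

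The VIP RNA came from C57BL/6J mice, whose splenic CD4 T cells had been activated with PMA, a phorbol ester, and ionomycin, a calcium ionophore, in the presence of vasoactive intestinal peptide (VIP). The untreated RNA came from splenic CD4 T cells of the same strain with the same activation and no VIP. Per the labels, males and females of 6 to 32 weeks were used, 5 to 10 spleens went into each sample, and the cells were taken with CD4 magnetic beads. Each of 6 biological replicates was hybridised on 1 array against its untreated counterpart, with VIP in Cy5 on replicates 1, 3 and 5 and in Cy3 on replicates 2, 4 and 6. All groups carried the activation, so resting cells are not part of the comparison, and neither the VIP dose nor the time of exposure is given in the sources used here.

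Death receptors of the TNF receptor family recruit the adaptors FADD and TRADD. FADD brings in the initiator caspase CASP8, and cFLIP, the product of Cflar, is a catalytically inactive relative of CASP8 that joins the same complex and restrains its activation. TRADD and the kinase RIPK1 work with the ubiquitin ligases BIRC2 (cIAP1) and BIRC3 (cIAP2) in the complex that turns on NF-kB, and XIAP binds and inhibits active caspases. In activated T cells this pathway is known for the removal of cells after a response. VIP acts on T cells through receptors that raise cAMP.

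Results for Cflar differed between its probes, so the stretches that tell the probes apart are shown first, 5′ to 3′. Capitals mark the part of a 36-base run that probes A_52_P226929 and A_52_P624648 have in common, which makes their values repeated readings of nearly the same target. The first 30 bases of each probe are shown, except for A_52_P624648, where bases 16 to 45 are shown.
A_52_P83888: ctacactgaatgaagtaatgacagggctga
A_52_P192071: ctgaagaacatccacagaatagacttgaac
A_51_P135491: gactactgtggaaagctttcttttagtctc
A_52_P624648: ttcaagattCTGAATGTAACTTGAGACTTA
A_52_P226929: gatttgacaCTGAATGTAACTTGAGACTTA
A_51_P326091: ttttttgttttagggtctcactatgtaact
All 6 lie on the plus strand of chromosome 1. In this order they start at 58774183, 58788074, 58789408, 58811096, 58811116 and 58815592, and end at 58774242, 58789098, 58789467, 58811160, 58811175 and 58815651. A_52_P192071 covers 1025 bases of the genome with 60 bases of sequence, so its target is in more than 1 exon. By the file's own annotation A_51_P326091 and A_52_P226929 target Cflar transcript variant 1, A_52_P624648 an mRNA named CASH alpha, A_52_P192071 and A_51_P135491 transcript variant 2, and A_52_P83888 a cDNA clone. Exon and UTR borders on mm9 were not used here.

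Array quality bears on several values below. Between 56.9% and 99.9% of the spots on an array stood well above background in a channel, and no member spot was saturated. Replicate 5 stood apart: 13.5% of its spots carried an outlier flag, against 0.574% to 4.44% on the other arrays. On that array the log2 ratio of VIP over untreated was -3.29 for Xist and 4.08 for Ddx3y, an X-inactivation RNA and a Y-linked gene, where the other 5 arrays ranged between -0.34 and 0.46 for Xist and between -0.10 and 0.39 for Ddx3y. Both channels of replicate 5 thus differed in sex-linked RNA, and whether its VIP and untreated RNA came from the same mice was not tested. Changes of a call without replicate 5 are given below for the member probes and for Map3k14. T cell markers were bright in both channels. The log2 of the intensity summed over 8 genes, a value set by the brightest of them, was 18.0 to 18.4 with VIP and 17.9 to 18.2 untreated. By the brightest probe of each gene 1 of the 8, Cd28, rose (log2 ratio 0.28 ± 0.047 SE, limma adjusted p = 0.012). The other Cd28 probe, at 0.16, was not called. For Thy1 the brightest probe, at 0.18, was not called, while the other, at 0.42, was called higher. The log2 of the summed intensity over 5 B cell markers ran between 12.8 and 13.8 with VIP and between 12.7 and 13.9 untreated. Over 6 monocyte and macrophage markers it ran between 13.3 and 14.2 with VIP and between 13.0 and 14.2 untreated, and 1 of these 6, Cd14, rose (log2 ratio 0.57 ± 0.069 SE, 5 arrays, limma adjusted p = 0.0033). No tested marker of B cells, CD8 T cells, NK cells, dendritic cells or granulocytes was called. The part of other cells in the results below was not tested, and in bulk RNA fewer cells of a type and less RNA per cell cannot be told apart.

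Of the 19 member probes, 3 fell with VIP and none rose, and the 3 are all probes of Cflar (limma, Benjamini-Hochberg adjusted p under 0.05 over all probes). Over all probes tested, 0.538% were called lower and 1.62% higher. The median log2 ratio of the 19 probes was -0.09, with 4 above 0 and 15 below, beside -0.0003 for all probes. Probes of 1 gene count separately in these numbers, and all 6 Cflar probes lay below 0. The other 7 genes had no called probe. With 1 probe per gene, chosen as the brightest, 1 of the 8 members fell and none rose, beside 0.524% and 1.6% of the 22731 genes tested. The median log2 ratio of the 8 genes was then -0.02, with 3 above 0 and 5 below, beside -0.0004 for all genes.

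**Figure D1:**
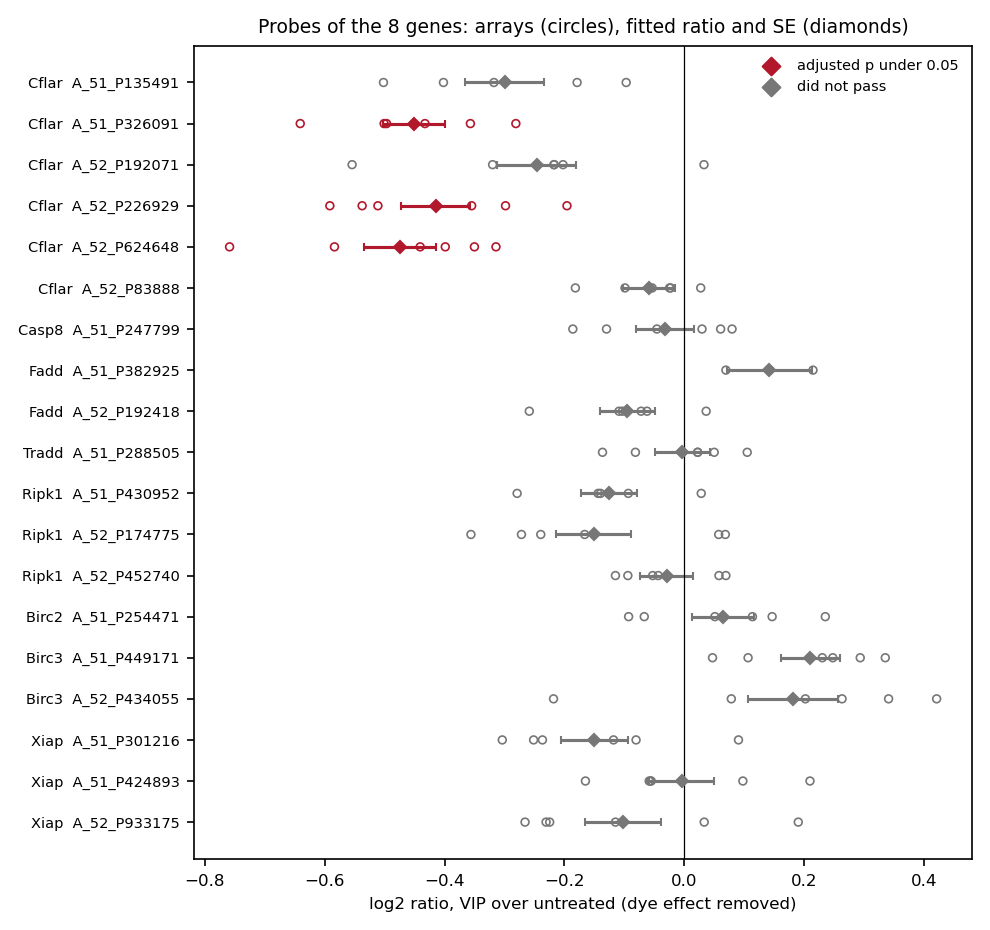
Log2 ratio of VIP over untreated (horizontal axis) for each of the 19 probes of the 8 genes (rows), with circles for single arrays after removal of the dye effect and diamonds with bars for the fitted ratio and its SE. The 3 Cflar probes in red, at -0.41 to -0.47, passed the test, and the Birc3 probes at 0.21 and 0.18 lie farthest to the right.

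Cflar, the inhibitor of CASP8 activation, was lower with VIP at the 3 most downstream of its 6 probes. For A_51_P326091, the brightest of the 6, the log2 ratios of VIP over untreated on replicates 1 to 6 were -0.68, -0.10, -0.54, -0.25, -0.68 and -0.46. All 6 arrays lay below 0, the 3 with VIP in Cy5 farther below than the 3 with VIP in Cy3, and the fitted dye effect was -0.18. The fitted ratio was -0.45 ± 0.052 (SE, n = 6; limma adjusted p = 0.0015), a level 1.37-fold lower with VIP. On the log2 intensity scale the VIP channel had 14.01, 15.69 and 16.66 as lowest, median and highest value, and the untreated channel 14.70, 16.12 and 16.91. The channels overlapped across arrays while every array was lower with VIP within itself.

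The other 2 called probes share 36 bases and lie 4.48 kb upstream of that one. A_52_P226929 had log2 ratios of -0.65, -0.24, -0.63, -0.18, -0.31 and -0.48 on replicates 1 to 6, again below 0 on all arrays. Its fitted ratio was -0.41 ± 0.058 (SE, n = 6; limma adjusted p = 0.0044), which is 1.33-fold lower with VIP. Its intensities were 12.66, 12.95 and 13.19 with VIP, against 12.85, 13.38 and 13.84 untreated (lowest, median and highest log2 value). A_52_P624648 had log2 ratios of -0.54, -0.25, -0.50, -0.21, -0.95 and -0.39. Replicate 5 was its lowest array, and the fitted ratio was -0.47 ± 0.061 (SE, n = 6; limma adjusted p = 0.0026), which is 1.39-fold lower with VIP. Its log2 intensities were 11.25, 11.91 and 12.29 with VIP, against 11.82, 12.36 and 12.83 untreated.

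**Figure D2:**
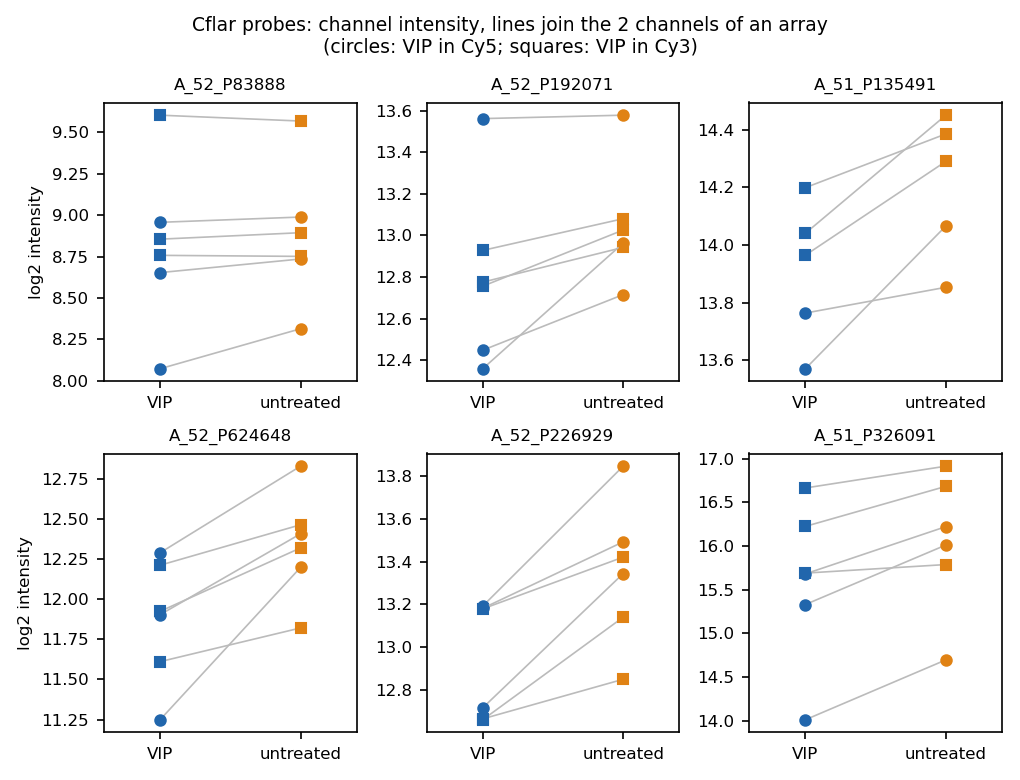
Normalised log2 intensity (vertical axes, each with its own range) of the 6 Cflar probes in the VIP channel (left, blue) and the untreated channel (right, orange), with lines joining both channels of an array. For the 3 probes of the lower row every line climbs towards the untreated side, while the lines of A_52_P83888 are nearly flat.

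The ratios of these 3 probes were below 0 on every slide. Within the 3 slides, each holding 1 array of either dye orientation, the log2 ratio of A_51_P326091 was -0.39, -0.39 and -0.57, that of A_52_P226929 was -0.45, -0.40 and -0.39, and that of A_52_P624648 was -0.40, -0.36 and -0.67. With each replicate left out in turn the 3 probes stayed past the threshold. The position on the slide went with dye orientation on all 3 slides, so these cannot be told apart. The calls depended on the processing of the intensities: with Agilent's own processed log ratios the values were -0.43, -0.42 and -0.48 for A_51_P326091, A_52_P226929 and A_52_P624648, and adjusted p was 0.081, 0.14 and 0.11.

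The 2 probes of transcript variant 2 had smaller ratios that passed in some settings only. A_51_P135491 had log2 ratios of -0.09, -0.41, -0.49, -0.32 and -0.19 on replicates 1, 2, 3, 4 and 6, and its spot on replicate 5 was left out as an outlier. All 5 arrays lay below 0, and the fitted ratio was -0.30 ± 0.066 (SE, n = 5; limma adjusted p = 0.056). A_52_P192071 had log2 ratios of -0.27, -0.17, -0.60, -0.15, -0.02 and -0.27, with replicate 5 nearest to 0. Its fitted ratio was -0.25 ± 0.066 (SE, n = 6; limma adjusted p = 0.10). A_51_P135491 was called with slides as fixed effects at -0.33 (adjusted p = 0.041) and in 6 further settings of 18. It was at -0.20 (adjusted p = 0.31) without replicate 3 and -0.40 (adjusted p = 0.048) without replicate 1. Without replicate 5, where its spot was already left out, its ratio stayed at -0.30 and it was called (limma adjusted p = 0.017). A_52_P192071 was called without replicate 5 at -0.32 (adjusted p = 0.0064) and with array weights (adjusted p = 0.030, limma).

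The most upstream probe, A_52_P83888, was nearly level. Its log2 ratios were -0.08, 0.01, -0.03, -0.04, -0.24 and 0.04, with 4 arrays below 0 and 2 above. The fitted ratio was -0.06 ± 0.043 (SE, n = 6; limma adjusted p = 0.64). Its median log2 intensity was 8.81 with VIP and 8.82 untreated.

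**Figure D3:**
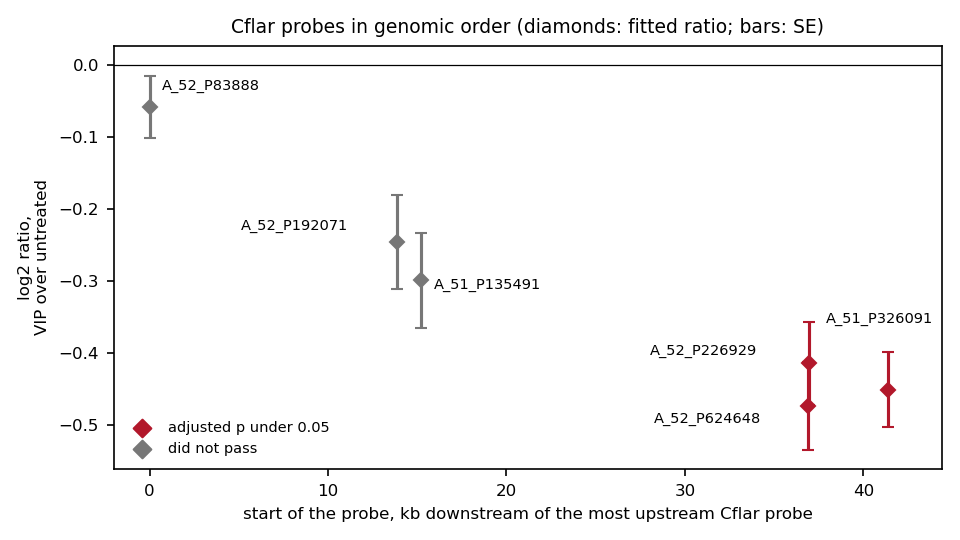
Fitted log2 ratio of VIP over untreated with its SE (vertical axis) for the 6 Cflar probes against the start of each probe in kb downstream of the most upstream one (horizontal axis). The values were -0.06 at 0 kb, -0.25 and -0.30 at 13.9 and 15.2 kb, and -0.47, -0.41 and -0.45 at 36.9, 36.9 and 41.4 kb.

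By position, the Cflar ratios thus lay lower at probes farther downstream. The differences between probes of one gene were put to an exact permutation test that flips signs over arrays (two-sided), for 23 pairs in all and 15 of Cflar. Each called probe was below A_52_P83888 on 6 of 6 arrays: A_51_P326091 by -0.39, A_52_P226929 by -0.36 and A_52_P624648 by -0.42 (log2, permutation p = 0.03125 each, the smallest that 64 sign patterns can give). A_52_P192071 was above A_52_P226929 by 0.17 on 6 of 6 arrays (permutation p = 0.03125). After adjustment over the 23 pairs none passed, the lowest adjusted p being 0.18. With 6 arrays, 15 of the 23 pairs would have to be at the smallest p for any to pass, so the adjusted test could hardly have made a call. A probe's ratio depends on its own hybridisation and background, and the part of these in the differences was not tested.

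Among all genes, 11 of 22731 had a lower log2 ratio than Cflar by its brightest probe, as did 9 of the 119 called lower. This rank holds for that probe, at -0.45, while the Cflar probes ran between -0.47 and -0.06. Over the 20 alternatives the log2 ratio of Cflar as a gene lay between -0.49 and -0.33. Among the called genes whose 6 dye-adjusted log2 ratios lay closest to those of Cflar, of 346 candidates, were Cks2, Ubxn2a, Igsf3 and Ankhd1. Cks2, a small subunit of cyclin-dependent kinases, differed from Cflar by a root mean square of 0.0996 (log2, 6 arrays) and had a ratio of -0.40. The root mean square difference was 0.138 for Ubxn2a, 0.143 for Igsf3 and 0.145 for Ankhd1, with log2 ratios of -0.36, -0.52 and -0.35.

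Casp8, the initiator caspase that cFLIP restrains, lay at a log2 ratio of -0.03 ± 0.049 (SE, n = 6; limma adjusted p = 0.87). Its log2 ratios on replicates 1 to 6 were 0.11, -0.13, 0.14, -0.00, -0.10 and -0.21, on both sides of 0. Its only probe, A_51_P247799, lies on chromosome 1 from 58901601 to 58901660, downstream of the Cflar probes on the same strand. Its median log2 intensity was 10.96 with VIP and 10.93 untreated.

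The adaptor genes showed no called difference. Tradd, which links TNF receptor 1 to RIPK1, had log2 ratios of -0.08, 0.10, 0.05, -0.14, 0.03 and 0.02 and a fitted ratio of -0.003 ± 0.045 (SE, n = 6; limma adjusted p = 0.99). Fadd, which joins death receptors to CASP8, had probes of opposite sign. A_52_P192418 had a fitted ratio of -0.09 ± 0.047 (SE, n = 6; adjusted p = 0.44) and a median log2 intensity of 7.48 with VIP and 7.45 untreated. A_51_P382925 had 0.14 ± 0.071 (SE, n = 3; limma adjusted p = 0.47), from replicates 3, 4 and 6 alone, because its spots on the other arrays carried outlier flags. These 3 arrays read 0.41, -0.05 and -0.19, and the fitted dye effect of 0.26 exceeded the ratio.

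Ripk1, the kinase that stands between NF-kB activation and cell death, was read by 3 probes on chromosome 13, none of them called. A_52_P174775, the brightest, had log2 ratios of -0.22, -0.38, 0.08, -0.19, -0.25 and 0.05 and a fitted ratio of -0.15 ± 0.063 (SE, n = 6; limma adjusted p = 0.34). A_51_P430952 had log2 ratios of -0.36, -0.02, -0.41, 0.29, -0.40 and 0.14, low on the 3 arrays with VIP in Cy5. Its fitted ratio was -0.13 ± 0.047 (adjusted p = 0.27) beside a dye effect of -0.26. A_52_P452740 was at -0.03 ± 0.044 (adjusted p = 0.86). The lowest permutation p of the 3 pairs of Ripk1 probes was 0.21875.

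None of the inhibitor of apoptosis genes passed the test. Birc3, a ubiquitin ligase gene and a known NF-kB target, had the largest positive ratios of the 8 genes. A_51_P449171, on the minus strand of chromosome 9 from 7848873 to 7848932, had log2 ratios of -0.04, 0.61, -0.17, 0.52, 0.02 and 0.32. The 3 arrays with VIP in Cy3 were the high ones, and after removal of a dye effect of -0.27 all 6 lay above 0, between 0.05 and 0.34. Its fitted ratio was 0.21 ± 0.049 (SE, n = 6; limma adjusted p = 0.061), and its log2 intensities were 14.54, 14.97 and 15.75 with VIP, against 14.38, 14.77 and 15.73 untreated (lowest, median, highest). The call was made with array weights (adjusted p = 0.028) and with scale normalization between arrays (adjusted p = 0.047).

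The second Birc3 probe, A_52_P434055, lies on the same strand from 7856162 to 7856221. Its log2 ratios were 0.35, 0.27, 0.27, 0.33, -0.28 and 0.15, with replicate 5 alone below 0. The fitted ratio was 0.18 ± 0.075 (SE, n = 6; limma adjusted p = 0.33) with all arrays, and 0.28 ± 0.048 (adjusted p = 0.0058) without replicate 5. The Birc3 stretches shown are the first 30 bases of each probe, since both read the same gene at different points.
A_51_P449171: attgcctgcactcctgaaattctcagaaag
A_52_P434055: acagataatgcccagctaatagaacagggt

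Birc2, the neighbour of Birc3 on chromosome 9 and the gene of the related ligase cIAP1, had log2 ratios of 0.14, 0.06, 0.10, -0.08, -0.08 and 0.25. Its fitted ratio was 0.06 ± 0.052 (SE, n = 6; limma adjusted p = 0.68). A further probe that RefSeq synonyms assign to Birc2, under another name in the files and so outside the 19, was at -0.01 ± 0.041 (adjusted p = 0.97). Xiap, on the X chromosome, had 3 probes at log2 ratios of -0.15 ± 0.056, -0.10 ± 0.064 and -0.004 ± 0.054 (SE, n = 6 each; limma adjusted p = 0.27, 0.57 and 0.99). The first, A_51_P301216, read -0.45, -0.11, -0.05, 0.07, -0.38 and 0.03 on replicates 1 to 6. Replicates 1 and 5 were the low ones for A_51_P301216, and also for A_52_P933175, where they read -0.41 and -0.44. A_51_P424893 was well above background on 4 arrays with VIP and on 6 untreated, with a median log2 intensity of 6.99 with VIP and 7.10 untreated.

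Around the 8 genes, 86 other genes of the pathway were listed in 8 groups, and 82 were tested. Of these, 3 rose with VIP, 3 fell and 76 did not pass, where 1.6% of all genes were called higher and 0.524% lower. The median log2 ratio was -0.0001 over the 82 and -0.0004 over all genes. The 6 changes lay in receptors, ligands and NF-kB targets. These lists were drawn up with results of the same data known.

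The group labelled death receptors also holds other members of the TNF receptor family. Of its 7 genes tested, 2 rose and none fell, beside 1.6% called higher and 0.524% lower among all genes. Both are TNF receptors. Tnfrsf1b, the receptor TNFR2, had log2 ratios of 0.20, 0.47, 0.29, 0.50, 0.11 and 0.46 at its brightest probe. The fitted ratio there was 0.34 ± 0.041 (SE, n = 6; limma adjusted p = 0.0022). Its other tested probe, at 0.20, was not called, and the median over its probes gave 0.27 (limma adjusted p = 0.0081). Tnfrsf1a, the death domain receptor TNFR1 that recruits TRADD, had log2 ratios of 0.32, 0.27, 0.37, 0.30, 0.19 and 0.65 and a fitted ratio of 0.35 ± 0.056 (SE, n = 6; limma adjusted p = 0.0100). Both were above 0 on all 6 arrays. Fas, the receptor of FasL, was at -0.03 ± 0.040 (adjusted p = 0.81), and Tnfrsf25 at 0.13 ± 0.052 on 5 arrays (adjusted p = 0.33). Without replicate 1 the adjusted p of Tnfrsf1a was 0.060, and without replicate 3 it was 0.055, with log2 ratios of 0.34 and 0.33. Both receptors lost their call with Agilent's log ratios (adjusted p = 0.15 for Tnfrsf1b and 0.17 for Tnfrsf1a), without the normexp offset (0.056 and 0.11) and with channels not paired, and Tnfrsf1a also with median centring (0.080).

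Among 7 ligand genes tested, 3 fell and none rose, beside 0.524% called lower and 1.6% higher among all genes. Lta, the gene of lymphotoxin alpha, which binds both TNF receptors, had log2 ratios of -0.58, -0.62, -0.51, -0.68, -0.46 and -0.23. Its fitted ratio was -0.51 ± 0.059 (SE, n = 6; limma adjusted p = 0.0017), a level 1.43-fold lower with VIP. Ltb, the gene of its membrane partner lymphotoxin beta, had a fitted ratio of -0.47 ± 0.061 (limma adjusted p = 0.0032), with replicate 5 at -0.12 and the other 5 arrays between -0.59 and -0.46. Both lymphotoxin genes lost their call with Agilent's log ratios (adjusted p = 0.096 for Lta and 0.083 for Ltb), with median centring (0.054 and 0.32) and with channels not paired, and Ltb also without the offset (0.054). Tnfsf14 (LIGHT) fell by 0.23 ± 0.047 on the log2 scale (limma adjusted p = 0.035), with all 6 arrays below 0, but each of the replicates 1, 2, 3, 4 and 6 left out brought its adjusted p to between 0.076 and 0.17. Fasl was at -0.13 ± 0.047 (adjusted p = 0.24) and Tnf at -0.04 ± 0.074 (adjusted p = 0.91), where replicate 5 read 0.56 and the other arrays lay below 0. Fas and Tnf were named after their values were seen.

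**Figure D4:**
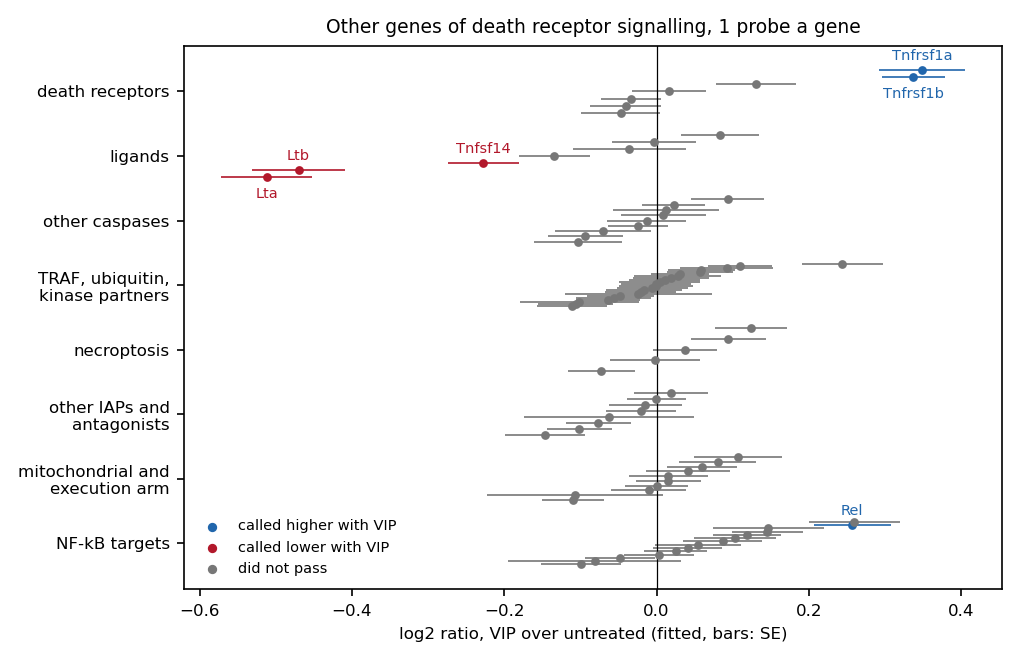
Fitted log2 ratio of VIP over untreated with its SE (horizontal axis) for the 82 tested pathway genes, 1 probe a gene, in 8 groups (rows). The TNF receptor genes at 0.34 and 0.35 and Rel at 0.26 are called higher, Lta at -0.51, Ltb at -0.47 and Tnfsf14 at -0.23 lower, and the remaining 76 in grey did not pass.

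Of the 14 genes listed as NF-kB targets, 1 rose and 13 did not pass, with a median log2 ratio of 0.07, where 1.6% of all genes were called higher. The list does not hold all known targets. Cflar, which fell at its brightest probe (-0.45), and Birc3, not called at 0.21, are known NF-kB targets counted among the members. The one that rose was Rel, an NF-kB subunit, with log2 ratios of 0.05, 0.34, 0.01, 0.33, 0.29 and 0.52 and a fitted ratio of 0.26 ± 0.050 (SE, n = 6; limma adjusted p = 0.028). Its adjusted p lay between 0.058 and 0.11 with any of the replicates 1, 2, 3, 4 and 6 left out, and it was 0.0504 with slides as fixed effects. Rel was called in 9 of 20 alternatives. Gadd45b, a stress response gene, was at 0.26 ± 0.060 (adjusted p = 0.060; called in 2 of 20 alternatives), and Nfkbia, the gene of the inhibitor IkB alpha, at 0.12 ± 0.045 (adjusted p = 0.28).

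Of 22 TRAF, ubiquitin and kinase partners none passed, beside 1.6% called higher and 0.524% called lower among all genes. Map3k14, the kinase NIK, was highest at 0.24 ± 0.053 on 5 arrays (limma adjusted p = 0.056; called in 4 of 19 alternatives). BIRC2 and BIRC3 keep NIK low by ubiquitination together with TRAF2 and TRAF3. Without replicate 5, where Map3k14 had no value, its ratio stayed at 0.24 and it was called (limma adjusted p = 0.018). Tnip1 was at 0.11 and Traf1 at -0.11 on the log2 scale, neither called. Of 9 other caspase genes none passed, and Casp9, the initiator of the mitochondrial arm, was at a log2 ratio of -0.09 and Casp1, an inflammatory caspase, at 0.09. The 5 necroptosis genes lay between -0.07 and 0.12, and Ripk3, the partner of RIPK1, was at 0.09 ± 0.049 (adjusted p = 0.48). The 8 other IAP and antagonist genes lay between -0.15 for Birc6 and 0.02, and the 10 genes of the mitochondrial and execution arm between -0.11 for Bax and 0.11 for Apaf1, with none called in either group.

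Promoter sequence was compared because Cflar and Birc3, both known NF-kB targets, lay on opposite sides of 0. RefSeq windows from 250 bases before to 50 after a start (GRCm38.p6) were given for 7 of the 8 genes, 11 windows in all. The search on both strands took GGGNNNNNCC, a loose NF-kB motif in which N is any base. It also took TGACG, the core of the cAMP response element (CRE). These letters occur in 50.8% and 20.8% of 32851 such windows. Cflar and Birc3 held 1 NF-kB match each and no CRE core. The matches are in capitals within 30 bases, on the gene's strand.
Cflar, chr1:58711498-58711527, plus strand: ttcggtttctGGGCGTCTCCattttgcgga
Birc3, chr9:7873208-7873237, minus strand: gggtggggtgGGGATAGGCCtcttaaggcg
The Cflar match begins at base 18 of the transcribed side and the Birc3 match at -57. Of the other genes, Casp8 held neither motif, Fadd the NF-kB letters on both strands at 1 place, Birc2 only CRE cores, and Ripk1 and Xiap both motifs in 1 of their windows. A match gives letters and not a bound site, the NF-kB letters are common among all windows, and narrower NF-kB motifs were not searched.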

How the data were processed

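RNA of activated CD4 T cells with and without VIP was measured on 6 two-colour arrays. Per the file headers, the authors read the scans with Agilent Feature Extraction 9.5.1.1, which deposited mean and local background intensity per channel, and quality flags scored 0 or 1. The deposited scanner files also hold log10 ratios of red over green, which match the authors' series table on the log10 scale after turning to VIP over untreated (largest difference 4.466e-06). Its medians were 0 on 5 arrays and -0.000222 on replicate 3.

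Intensities were corrected by normexp (offset 50) and normalised by loess within arrays in limma 3.58.1 (R 4.3.3). The 1639 control spots and outlier-flagged spots were left out, and spots of a probe averaged. A probe was tested if well above background on at least 3 arrays in either channel. The log2 ratio was fitted with VIP and an intercept for dye (lmFit, eBayes, 4 residual degrees of freedom), with Benjamini-Hochberg adjustment over all probes or over all genes by their brightest probe. Gene names came from RefSeq through the accession (26788 spots) or a synonym (1810 spots), and 14781 spots kept the file's name. Levels of single channels were scaled between arrays by their mean intensity (Aquantile) and compare arrays, not probes.

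No 2 arrays held identical values. Samples were grouped by the labels, each array holding both groups. A p-value here speaks only to the spread among 6 arrays, whose number limits the precision. Named genes were all members, every called gene and up to 4 genes of lowest p in each pathway list, and the 5 genes closest to Cflar; a few that this rule names are not reported here. Members and lists were chosen with earlier results of these data known. Alternatives varied 20 settings of background, normalization, filter, flags, dye, weights, slide, pairing, prior, probe rule and replicates.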

Additional observations from a re-analysis of the deposited data

Results flagged for a closer look

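The per-array values of 52 probes and genes were searched for a single array standing apart from the others by Dixon's limit, which chance passes for about 5% of such sets. With the dye effect removed 0 of 52 passed. With the ratios as printed, dye effect kept, 5 passed, all on 6 arrays. In 4 of the 5 the array was replicate 5, which read -0.28 for the Birc3 probe A_52_P434055, -0.12 for Ltb, -0.80 for Xaf1, an antagonist of XIAP, and 0.56 for Tnf (log2 ratio of VIP over untreated). The other was Parp1, a target of caspase cleavage, with replicate 4 at 0.25. Replicate 5 is also the array whose channels differ in sex-linked RNA; the part of that difference in these values was not tested.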

How the results depend on the processing

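No member probe or named gene with a call changed direction under the 20 alternatives. Over 354 combinations of a member probe and a setting, 332 stayed on the same side of the threshold, 10 lost a call and 12 gained one. Of uncalled ratios near 0, the probe of Casp8 was above 0 in 2 settings, that of Tradd in 3 and Xiap at A_51_P424893 in 5. Fadd as a gene was above 0 in 14 settings and below 0 in 6, between -0.10 and 0.22, while each Fadd probe kept its sign. Xaf1 was above 0 in 2 settings and below 0 in 18. Across all arrays 535 probes were called higher and 178 lower, and 364 genes higher and 119 lower. With 1 array left out, probes called higher numbered 238 to 837 and lower 44 to 347, genes called higher 159 to 567 and lower 32 to 254, and member probes called higher 0 to 1 and lower 3 to 5. The highest counts of probes and genes came without replicate 5 and the lowest without replicate 1, and each of the 6 arrays left out moved at least 1 of these counts by over 1.5 times. With Agilent's processed log ratios 39 probes and 19 genes were called higher, 0 probes and 0 genes lower, and 0 member probes lower. With channels not paired 3 probes and 1 gene were called higher, 0 lower, and 0 member probes lower; the standard errors then hold the spread between arrays. Median centring in place of loess gave 174 probes and 112 genes higher, 9 and 8 lower, and 1 member probe lower. Without the normexp offset 110 probes and 74 genes were higher, 9 and 9 lower, and 1 member probe lower. Without a dye intercept 247 probes and 162 genes were higher, 53 and 39 lower. With array weights 343 probes and 221 genes were lower, and 1 member probe was higher and 5 lower. Scale normalization made 1 member probe higher. The share of gene calls that were higher was 75.4%, against 93.3% with median centring, 89.2% without the offset and 100% with Agilent's ratios; of probe calls it was 75.0%, against 95.1%, 92.4% and 100%. Calls at A_51_P326091 and A_52_P226929 were lost with median centring (adjusted p = 0.057 and 0.23), and those at A_52_P226929 and A_52_P624648 without the offset (adjusted p = 0.074 and 0.052). Where a cause is not named, it was not tested. By the labels the ratio within an array is itself the pair, so the fit is paired and the unpaired channels are its alternative. On replicate 5, whose channels differ in sex-linked RNA, whether this pairing joins RNA of the same mice was not tested. Signal limits the Xiap probe A_51_P424893, the only member probe not well above background on every array measured.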
